A study of Mus musculus with 7 samples.

Results

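The levels of 10 mouse genes of DNA methylation and of the protection of maternal imprints were followed through oocyte maturation, with and without BYBX, a fluorescent ligand that binds RNA G-quadruplexes (rG4s) and stabilises them. The genes were chosen by name for these roles. They are *Dnmt1*, *Uhrf1*, *Dnmt3a*, *Dnmt3b*, *Dnmt3l*, *Tet3*, *Tet2*, *Tdg*, *Dppa3* and *Trim28*, and they are 10 of the 25912 entries listed in each library. rG4s are folds that guanine-rich RNA can form.

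The mouse oocyte receives most of its DNA methylation while it grows, when DNMT3A and its partner without catalytic activity, DNMT3L, methylate the genome, including the sites that become maternal imprints. After growth transcription falls silent, and the mature egg enters the embryo with a store of maternal mRNAs and proteins. In the zygote, TET3 oxidises methylated cytosine, DPPA3 shields the maternal genome from that oxidation, DNMT1 with its recruiter UHRF1 copies methylation onto new strands, and TRIM28, brought to imprints by zinc finger proteins such as ZFP57, keeps imprinted sites methylated. Fully grown oocytes are arrested with an intact nucleus, the germinal vesicle (GV), and mature to metaphase of meiosis II (MII), a step in which much of the maternal mRNA is degraded.

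Each library was made from 10 pooled oocytes of the ovary by Smart-seq2. The study took oocytes at the GV stage from 4-week-old C57BL/6 females primed with PMSG, and cultured them in M16 medium. The GV group (2 libraries) has no treatment in its labels, although the methods of the study say that GV and MII controls were given DMSO and that milrinone was used to hold oocytes at the GV stage. The MII with DMSO group (3 libraries) received the solvent and the MII with BYBX group (2 libraries) received BYBX, at a dose and for a time that neither the labels nor the Smart-seq2 methods state. No group carries a mutation or a transgene that the labels name, and the sources used here do not say whether the treated oocytes were selected for having completed the first division. Reverse transcription began at oligo-dT primers, so the values follow polyadenylated RNA. Nothing in the labels says that replicates of a group came from separate mice, so p-values measure only the spread between these libraries.

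The 12 oocyte markers checked were all listed and none was at 0 in every library, with a summed level of 11349 to 15101 FPKM in GV, 2773 to 3522 FPKM in MII with DMSO and 6663 to 7167 FPKM in MII with BYBX. FPKM is fragments per kilobase of exon, normalised to the mapped fragments of a library, here as scaled by the authors to a spike-in RNA. The 15 markers of granulosa and cumulus cells summed to 10.3 to 18.7 FPKM in GV, 2.37 to 2.88 FPKM in MII with DMSO and 4.06 to 4.74 FPKM in MII with BYBX, *Ptx3* was at 0 in every library and 10 stayed under 1 FPKM in all. Their part in the results below was not tested. Summed FPKM per library was 402113 to 489569 in GV, 109732 to 127254 in MII with DMSO and 201482 to 246710 in MII with BYBX, and the 10 genes together made up 0.190% to 0.301% of it. Since the scaling to the spike-in sets these totals, and its factors are not stated, each result is also given relative to the other genes or within a library. Less RNA per oocyte and fewer intact oocytes in a pool cannot be told apart in such values.

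The ligand binds rG4s, so the transcripts of the 10 genes were searched for letters that can form one, taken here as 4 runs of G, each 3 or longer, separated by 1 to 7 bases, on the strand of the mRNA. The longest protein-coding transcript of each gene was taken from the GENCODE annotation vM21 (GRCm38, which is UCSC mm10). Of the 10 genes 4 held a match, *Dnmt1*, *Dnmt3a*, *Tet3* and *Trim28*. Among 8747 tested genes with such a transcript 18.7% held one, with 3.28% in the coding sequence and 9.28% in the 3′-UTR. A match is only a pattern of letters in an annotated transcript, and rG4 formation in these transcripts was not measured here. The 4 matches below are those of at most 30 bases, printed 5′ to 3′ along the mRNA with the runs of guanine in capitals, to show what a predicted rG4 in these genes looks like.
Dnmt1: GGGaacaaaGGGaaaGGGaaGGGG
Dnmt3a: GGGGttGGGacccaaGGGcagaGGG
Tet3: GGGtctcacGGGGattGGGGGaGGGG
Trim28: GGGtcGGGcgaGGGctcggcGGG

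The *Dnmt1* match lies in the coding sequence at chr9:20912576-20912599 on the minus strand and is in 4 of 4 annotated coding transcripts. The *Trim28* match is also in coding sequence, at chr7:13024791-13024813 on the plus strand, in the single coding transcript of that gene. The *Dnmt3a* match is in the 3′-UTR at chr12:3913653-3913677 on the plus strand, and a second, longer match lies in the same 3′-UTR. Of 13 annotated coding transcripts of *Dnmt3a*, 3 held a match. The *Tet3* match is in the 3′-UTR at chr6:83364766-83364791 on the minus strand, in 1 of 3 coding transcripts. These last 2 transcripts are long, 9685 and 10904 bases, against a median of 2995 bases over the 8747 genes, and a longer transcript offers more places for a match. None of the longest transcripts of *Uhrf1*, *Dnmt3b*, *Dnmt3l*, *Tet2*, *Tdg* and *Dppa3* held these letters.

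The first question was how much of each mRNA the fully grown oocyte holds. In GV oocytes the maintenance pair and *Dppa3* were the most abundant of the 10, and *Tet2* and *Tdg* had the lowest listed values, 0.122 and 0.103 FPKM for *Tet2* and 0 or near 0 for *Tdg*, where a 0 may be a failed estimate. The mean GV level was 264 ± 37.2 FPKM for *Dnmt1*, 209 ± 21.3 FPKM for *Uhrf1* and 208 ± 20.1 FPKM for *Dppa3* (SD, n = 2). *Tet3* followed at 102 ± 2.91 FPKM and *Trim28* at 38.5 ± 6.84 FPKM. *Dnmt3a* stood at 27.1 ± 5.69 FPKM, *Dnmt3l* at 21.4 ± 4.79 FPKM and *Dnmt3b* at 3.14 ± 1.05 FPKM. Neighbours in this order whose libraries overlapped were *Uhrf1* with *Dppa3* and *Dnmt3a* with *Dnmt3l*, and the other neighbours did not overlap.

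In MII with DMSO the order changed. *Dppa3* was highest at 95.9 ± 20.9 FPKM, followed by *Tet3* at 70.8 ± 12.6 FPKM, *Dnmt1* at 67.8 ± 19.1 FPKM and *Uhrf1* at 49.6 ± 8.35 FPKM (SD, n = 3), and each of these overlapped its neighbour. *Dnmt3l* dropped below *Dnmt3b*, at 0.98 ± 0.47 FPKM against 1.81 ± 0.44 FPKM, with overlapping libraries. In MII with BYBX the order was *Dnmt1*, *Dppa3*, *Uhrf1*, *Tet3*, *Trim28*, *Dnmt3a*, *Dnmt3l* and *Dnmt3b*, with *Dnmt1* at 173 ± 61.2 FPKM and *Dppa3* at 161 ± 16.1 FPKM (SD, n = 2) overlapping. For all of these 8 genes the first BYBX library was the higher of the pair.

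**Figure D1:**
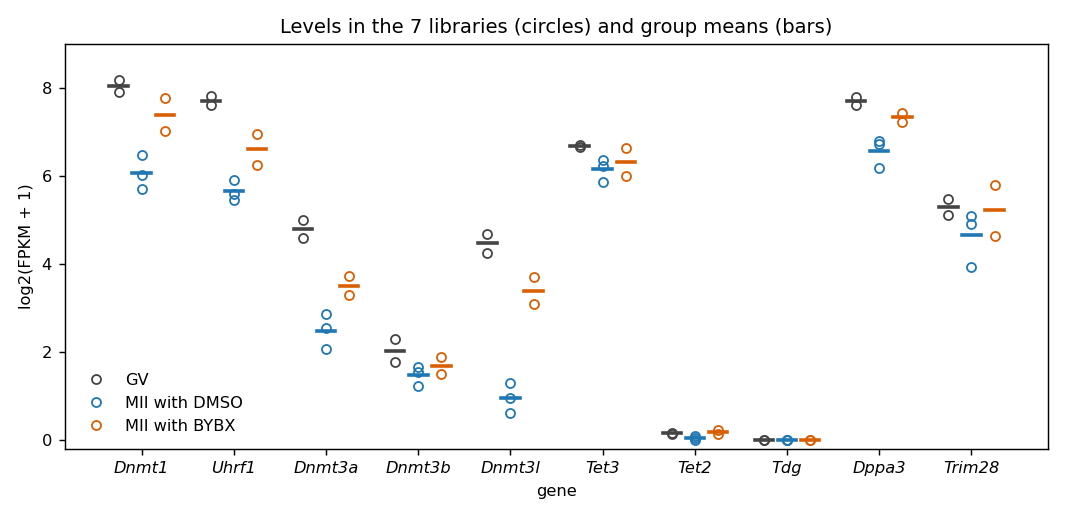
Level of each of the 10 genes, as log2(FPKM + 1), in the 2 GV (grey), 3 MII with DMSO (blue) and 2 MII with BYBX (orange) libraries. Circles are libraries and bars are group means. For *Dnmt1*, *Uhrf1*, *Dnmt3a*, *Dnmt3l* and *Dppa3* the BYBX libraries sit between the other groups without overlap, whereas those of *Dnmt3b*, *Tet3* and *Trim28* overlap the DMSO libraries.

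To test differences, log2(FPKM + 1) was fitted with limma over 9202 entries with a mean of the 3 group means of at least 1 FPKM, and p-values were adjusted over all of them by the Benjamini-Hochberg method. *Tet2* and *Tdg* were below this level and 8 of the 10 genes were tested. *Dnmt3l* passed only because of its GV and BYBX levels. A change of 1 on this scale is a doubling at high levels and understates the change of low genes. All 3 comparisons share libraries with another, so the values of a gene are set side by side and are not independent.

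From GV to MII with DMSO, 6 of the 8 tested genes were called lower by limma, 0 higher (0 also at an unadjusted p under 0.05), and 2 (*Tet3* and *Trim28*) were not called. Of all tested entries 88.3% were called lower and 0.272% higher, and the libraries of GV and MII with DMSO did not overlap for 8 of 8, against 92.5% of all entries lower and 0.315% higher. The median change of the 8 was -1.56 on the log2 scale, against -1.83 over all tested entries. With 0.1 in place of 1 added to FPKM these medians were -1.57 and -2.53. When every library was given the same total FPKM, 2 of the 8 were called lower and 4 higher, against 4557 and 2141 of the 9202 entries. With median centring 1 was called lower and 4 higher, against 2456 and 4494 entries. The sign of *Dnmt3b*, *Tet3*, *Dppa3* and *Trim28* turned under both and that of *Dnmt1* and *Uhrf1* under median centring.

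With BYBX, 5 of the 8 were called higher than in MII with DMSO by limma, 0 lower (0 also at an unadjusted p under 0.05), and *Dnmt3b*, *Tet3* and *Trim28* were not called. Of all tested entries 65.2% were called higher and 0.0326% lower, and without overlap between the libraries stood 5 of the 8 genes and 79.0% of all entries, with 0.293% lower. The median difference was 0.86 for the 8 and 0.84 for all entries. With 0.1 in place of 1 added to FPKM these medians were 0.87 and 1.29, so their likeness rests on the value added. Under the same total FPKM 1 was called higher and 1 lower, against 3672 and 756 of the 9202 entries. Under median centring 1 was called higher and 3 lower, against 1696 and 4040 entries. Without the first BYBX library 2 remained called higher, *Dnmt1* and *Dnmt3l*, and without the second 6 were.

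Between MII with BYBX and GV, 3 of the 8 were called lower (*Uhrf1*, *Dnmt3a* and *Dnmt3l*), against 69.2% of all entries lower and 0.315% higher. GV and MII with BYBX did not overlap for 6 of the 8, all of them lower with BYBX, against 82.3% of entries lower and 0.848% higher without overlap. The median difference was -0.51 for the 8 and -0.99 for all entries, and with 0.1 added to FPKM it was -0.55 and -1.19. The count fell to 1 without the first GV library, to 1 without the second BYBX library, and to 0 in limma under either rescaling (0 also at an unadjusted p under 0.05), where 0 under the same total (3 at an unadjusted p under 0.05) and 2 under median centring were called higher.

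**Figure D2:**
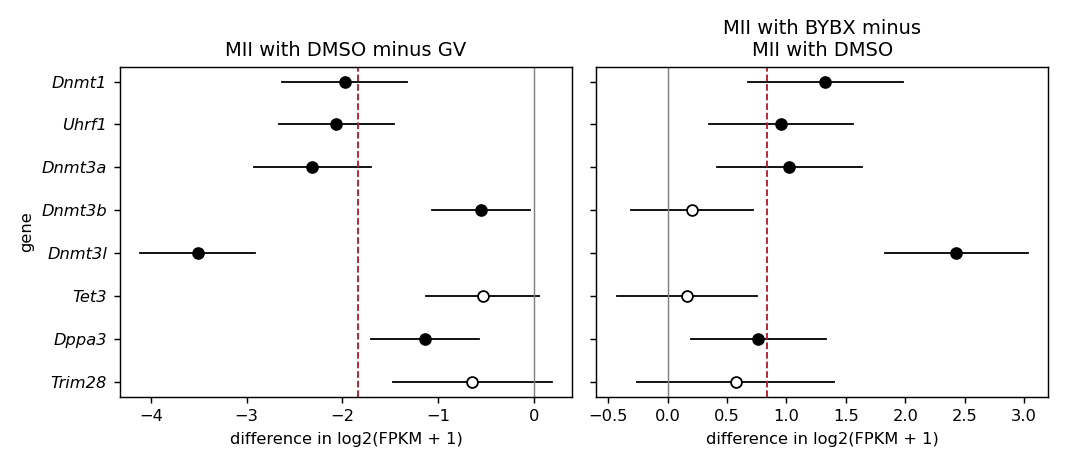
Fitted difference in log2(FPKM + 1) of the 8 tested genes, with 95% confidence intervals, from GV to MII with DMSO (left) and from MII with DMSO to MII with BYBX (right). Filled points have an adjusted p under 0.05, the grey line is 0 and the dashed red line is the median of all 9202 entries, -1.83 on the left and 0.84 on the right. *Dnmt3l* lies farthest from the dashed line on both sides.

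*Dnmt3l* and *Dnmt3a*, which set methylation during oocyte growth, had the largest falls of the 8 on the deposited scale. *Dnmt3l* (chr10:78041947-78063622, plus strand), the cofactor that stimulates DNMT3A, had 24.8 and 18.0 FPKM in GV, 0.931, 0.542 and 1.47 FPKM in MII with DMSO, and 12.0 and 7.46 FPKM in MII with BYBX. The 3 groups did not overlap, and MII with DMSO retained 4.58% of the GV mean (2.53% to 6.86% over its libraries) where MII with BYBX retained 45.4% (34.9% to 56.0%). Over tested entries the median retained was 16.3% with DMSO and 43.4% with BYBX, so the share of *Dnmt3l* with BYBX was near the median. The percentages of the GV mean given below for other genes are to be read beside these medians. The limma difference was -3.51 ± 0.28 (SE, adjusted p = 3.87e-08) from GV to MII with DMSO, 2.43 ± 0.28 (adjusted p = 5.73e-06) from there to MII with BYBX, and -1.08 ± 0.31 (adjusted p = 0.00677) between MII with BYBX and GV. It was the only one of the 8 genes that kept its direction and its call in both of the first 2 comparisons under the alternatives run, including same total FPKM (-2.12 and 1.97) and median centring (-1.21 and 1.15). Relative to the median of all entries *Dnmt3l* moved by -1.67 and then by 1.59. Between MII with BYBX and GV its limma call was lost under the same total (-0.15, adjusted p = 0.733) and median centring (-0.053, adjusted p = 0.894). That difference was -0.86 without the first GV library and -0.77 without the second BYBX library.

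*Dnmt3a* (chr12:3806007-3914443, plus strand), the de novo methyltransferase that DNMT3L serves, had 31.1 and 23.0 FPKM in GV, 3.18, 4.80 and 6.23 FPKM in MII with DMSO and 12.2 and 8.87 FPKM in MII with BYBX. Again the 3 groups did not overlap, at 17.5% of the GV mean with DMSO and 38.8% with BYBX. Its difference was -2.31 ± 0.28 (adjusted p = 3.21e-06) in maturation and 1.03 ± 0.28 (adjusted p = 0.00616) with BYBX. Against the median of all entries these were -0.48 and 0.19, on a scale that understates the change of low entries. On plain FPKM the medians over tested entries were 16.3% of GV retained with DMSO and a BYBX to DMSO ratio of 2.57. *Dnmt3a* had 17.5% and 2.22. In maturation the difference became -0.61 (adjusted p = 0.0372) under the same total and -0.0074 (adjusted p = 0.978) under median centring, which ended the call, and the difference with BYBX became -0.25 (adjusted p = 0.342) under median centring and 0.26 (adjusted p = 0.371) under the same total. The gene makes a long and a short protein, and values per gene do not separate their transcripts.

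*Dnmt3b* (chr2:153649450-153687730, plus strand), the other de novo methyltransferase, was low throughout. It had 3.88 and 2.39 FPKM in GV, 1.33, 2.18 and 1.92 FPKM in MII with DMSO and 2.68 and 1.81 FPKM in MII with BYBX. The GV libraries lay above those of MII with DMSO, and the BYBX libraries overlapped both groups. The change in maturation, -0.55 ± 0.24 (adjusted p = 0.0439), just passed the threshold. It did not pass with a pseudocount of 0.1 (adjusted p = 0.0642), without a filter on level (adjusted p = 0.102), without an intensity trend (adjusted p = 0.0538) or with the number as a replicate block (-0.58, adjusted p = 0.0875). Nor did it pass without the first GV library (adjusted p = 0.343), the first DMSO library (adjusted p = 0.160) or the third DMSO library (adjusted p = 0.0700). Under the same total and median centring the gene was called higher in MII (0.78 and 1.76, adjusted p = 0.00703 and 2.53e-05). With BYBX the difference was 0.21, with a 95% interval of -0.31 to 0.72, and it was called lower under median centring (-1.07, adjusted p = 0.00134). A stretch of 33.2% of its transcript is shared at 93.9% identity with *Dnmt3c*, so its level is uncertain to that extent.

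*Dnmt1* and *Uhrf1*, the maintenance pair, fell in maturation and were higher with BYBX on the deposited scale, while under median centring both signs of *Uhrf1* and the sign of *Dnmt1* in maturation turned. *Dnmt1* (chr9:20907209-20959888, minus strand), the methyltransferase that copies methylation at replication and has an oocyte form, had 290.5 and 238 FPKM in GV, 51.2, 63.5 and 88.7 FPKM in MII with DMSO and 216 and 129.6 FPKM in MII with BYBX. No groups overlapped, and MII with DMSO held 25.7% of the GV mean (19.4% to 33.6%) and MII with BYBX 65.4% (49.0% to 81.8%). The difference was -1.98 ± 0.30 (adjusted p = 2.96e-05) in maturation and 1.33 ± 0.30 (adjusted p = 0.00174) with BYBX. With the same total FPKM they were -0.10 (adjusted p = 0.684) and 0.44 (adjusted p = 0.123) in limma. Under median centring they were 0.33 (adjusted p = 0.251) and 0.050 (adjusted p = 0.872), so the call with BYBX was lost under both. Between MII with BYBX and GV the difference of -0.65 ± 0.33 was not called (adjusted p = 0.0964). It was called without the first BYBX library (-1.02, adjusted p = 0.0312), was -0.28 without the second, and turned to 0.34 and 0.38 under the same total and median centring.

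*Uhrf1* (chr17:56303321-56323486, plus strand), which binds hemimethylated DNA and brings in DNMT1, had 224 and 194 FPKM in GV, 42.8, 47.2 and 58.9 FPKM in MII with DMSO and 124 and 74.9 FPKM in MII with BYBX. The groups did not overlap, and the second BYBX library was closer to the DMSO libraries than to GV. In maturation it fell by 2.06 ± 0.28 (adjusted p = 8.72e-06) and with BYBX the difference was 0.95 ± 0.28 (adjusted p = 0.00865), the latter not called without the first BYBX library (0.60, adjusted p = 0.153). Under median centring the changes were 0.24 and -0.32 (adjusted p = 0.331 and 0.214), against medians of 0.47 and -0.44 over all entries. Between MII with BYBX and GV it differed by -1.11 ± 0.31 (adjusted p = 0.00585), to 47.5% of the GV mean. A pseudogene, *Gm5648*, matches 44.3% of its transcript at 98.3% identity, so its level is uncertain to that extent.

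*Tet3* and *Trim28* passed the test in no comparison on the deposited scale, and their differences were nearer to 0 than the median of all entries. *Tet3* (chr6:83362373-83459084, minus strand), the maternal dioxygenase of the zygote, had 99.7 and 104 FPKM in GV, 56.9, 74.0 and 81.6 FPKM in MII with DMSO and 97.7 and 63.1 FPKM in MII with BYBX. GV lay above every MII library, and the 2 MII groups overlapped. The difference was -0.53 ± 0.27 (adjusted p = 0.0816) in maturation and 0.16 with BYBX, with a 95% interval of -0.43 to 0.75. MII with DMSO retained 69.6% of the GV mean and MII with BYBX 79.0%. In maturation it lay 1.30 above the median of all entries, at the 89.4 percentile of all changes, and it was called higher in MII under the same total (1.33, adjusted p = 0.000213) and under median centring (1.77, adjusted p = 7.65e-05). Under the same rescalings it was called lower with BYBX than with DMSO, by -0.72 (adjusted p = 0.0139) and -1.12 (adjusted p = 0.00275).

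*Trim28* (chr7:12999114-13031035, plus strand), the corepressor that holds imprinted sites methylated, had 33.6 and 43.3 FPKM in GV, 14.4, 29.2 and 33.2 FPKM in MII with DMSO and 54.7 and 24.0 FPKM in MII with BYBX. The DMSO libraries all lay below GV, the first at 37.3% of the GV mean and the third close to the lower GV library, and those with BYBX lay on either side, at 142% and 62.5% of the GV mean. It was not called in maturation (-0.64 ± 0.38, adjusted p = 0.129), with BYBX (0.57 ± 0.38, adjusted p = 0.201) or between MII with BYBX and GV (-0.07 ± 0.42, adjusted p = 0.893). Without the second BYBX library the difference between the MII groups was 1.15 (adjusted p = 0.0269), and without the first it was -0.004. The 95% interval of that difference was -0.26 to 1.40.

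*Dppa3* (chr6:122626410-122630272, plus strand), which shields the maternal genome from TET3, had 223 and 194 FPKM in GV, 72.0, 105 and 111 FPKM in MII with DMSO and 173 and 149.8 FPKM in MII with BYBX. The groups did not overlap. MII with DMSO held 46.0% of the GV mean and MII with BYBX 77.3%. The fall in maturation was -1.13 ± 0.26 (adjusted p = 0.00111) and the difference with BYBX 0.76 ± 0.26 (adjusted p = 0.0208), the latter not called without the first DMSO library (adjusted p = 0.0912) or the first BYBX library (adjusted p = 0.124). Its signs turned under both rescalings, to 0.74 and 1.17 in maturation and to -0.12 and -0.51 with BYBX. The pseudogenes *Dppa3-ps* and *Gm47576* match 54.1% and 54.0% of its transcript.

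*Tet2* and *Tdg* were under the level that was tested. *Tet2* (chr3:133463679-133545139, minus strand), a dioxygenase related to TET3, had 0.122 and 0.103 FPKM in GV, 0.071, 0.0323 and 0.00511 FPKM in MII with DMSO and 0.173 and 0.107 FPKM in MII with BYBX. The MII with DMSO libraries were the lowest, but at such levels no test was made. *Tdg* (chr10:82629828-82650799, plus strand), the glycosylase that removes the oxidised bases which TET enzymes make, was listed at 0 in 6 libraries and at 4.03e-06 FPKM in the other, the first GV library. An exact 0 may be a failed estimate here. *Tdg-ps* matches 84.8% of its transcript at 98.7% identity, the authors kept uniquely mapped reads, and 2 of 81 entries of ribosomal proteins, which every cell uses, were at 0 in every library too. The level of *Tdg* is therefore not known from these values.

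A measure that does not depend on scaling is the share of each gene in the summed FPKM of the 10 genes of a library. *Tet3* made up 10.7% and 12.7% of the sum in GV, 21.3% to 23.5% in MII with DMSO and 13.7% and 14.1% in MII with BYBX. *Dnmt1* made up 31.2% and 29.1% in GV, 19.5% to 23.2% in MII with DMSO and 31.2% and 28.2% in MII with BYBX. For both genes the shares with BYBX lay with those of GV or near them, and those with DMSO apart. *Uhrf1* behaved otherwise, with 24.1% and 23.8% in GV against 14.5% to 17.6% with DMSO and 17.9% and 16.3% with BYBX. The share of *Dnmt3l* was 2.66% and 2.2% in GV, 0.17% to 0.38% with DMSO and 1.73% and 1.62% with BYBX.

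**Figure D3:**
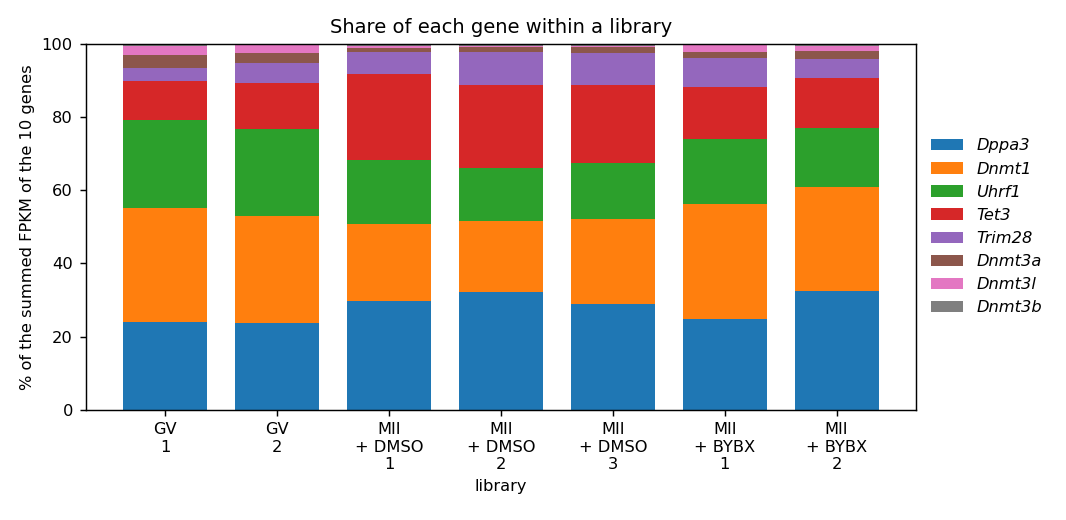
Share of each gene in the summed FPKM of the 10 genes, in percent, for each of the 7 libraries. The 8 genes with the highest mean share are drawn. *Tet3* (red) takes 21.3% to 23.5% in MII with DMSO and 10.7% to 14.1% in the other libraries, and *Dnmt3l* (pink) is narrowest in MII with DMSO.

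The rank of a gene within its library is likewise free of scaling. Among the tested entries *Tet3* moved from the 89.3 and 92.1 percentiles in GV to the 96.6 to 97.5 percentiles in MII with DMSO, and it stood at 95.7 and 94.1 with BYBX. *Trim28* moved from 71.1 and 80.7 to between 86.8 and 93.2 with DMSO, with 91.3 and 83.6 with BYBX. *Dnmt3b* was at 15.8 and 9.73 in GV, at 45.9 to 54.6 with DMSO and at 29.7 and 21.3 with BYBX, where the 3 groups did not overlap. *Dnmt3l* went from 64.1 and 62.5 to between 26.7 and 45.1 with DMSO and was at 66.8 and 59.0 with BYBX. *Dnmt1*, *Uhrf1* and *Dppa3* stayed above the 95 percentile in every library.

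Ratios of 2 genes within a library compare partners directly. The 5 ratios, each as log2 of (FPKM + 1) of the first gene over that of the second, were compared by exact two-sided permutation tests over libraries, adjusted over the 5. With 2 libraries against 3 the smallest p such a test can give is 0.1, and with 2 against 2 it is 0.33, so no difference could be called.

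The ratio of *Dppa3* to *Tet3*, the protector against the oxidising enzyme, was 1.15 and 0.90 in GV, 0.33, 0.50 and 0.44 in MII with DMSO and 0.81 and 1.23 in MII with BYBX. The DMSO libraries were the lowest, without overlap with either group. The group means were 1.02 ± 0.18 in GV, 0.42 ± 0.08 with DMSO and 1.02 ± 0.30 with BYBX (exact permutation p = 0.1 for each comparison with DMSO, adjusted p = 0.125 in maturation and 0.167 with BYBX). The ratio of *Dnmt3a* to *Dnmt3l* was 0.32 and 0.34 in GV, 1.11, 1.91 and 1.55 with DMSO and 0.02 and 0.22 with BYBX. With DMSO *Dnmt3a* thus exceeded its cofactor by more than in either other group, at 3.42, 8.86 and 4.25 times its FPKM, against 1.25 and 1.28 times in GV and 1.02 and 1.19 times with BYBX (exact permutation p = 0.1 for each comparison with DMSO).

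For *Dnmt1* to *Dppa3* the ratio was 0.38 and 0.29 in GV, -0.48, -0.71 and -0.32 with DMSO and 0.32 and -0.21 with BYBX. *Dppa3* exceeded *Dnmt1* in every DMSO library and was below it in both GV libraries. *Trim28* to *Dnmt1* was -3.07 and -2.43 in GV, -1.76, -1.09 and -1.39 with DMSO and -1.96 and -2.38 with BYBX, where the groups with DMSO and BYBX did not overlap (exact permutation p = 0.2). *Dnmt1* to *Uhrf1* was 0.37 and 0.29 in GV and 0.25, 0.42 and 0.58 with DMSO, groups that overlapped (exact permutation p = 0.6). The BYBX libraries were above both, at 0.80 and 0.78 (exact permutation p = 0.2 against DMSO and 0.33 against GV).

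**Figure D4:**
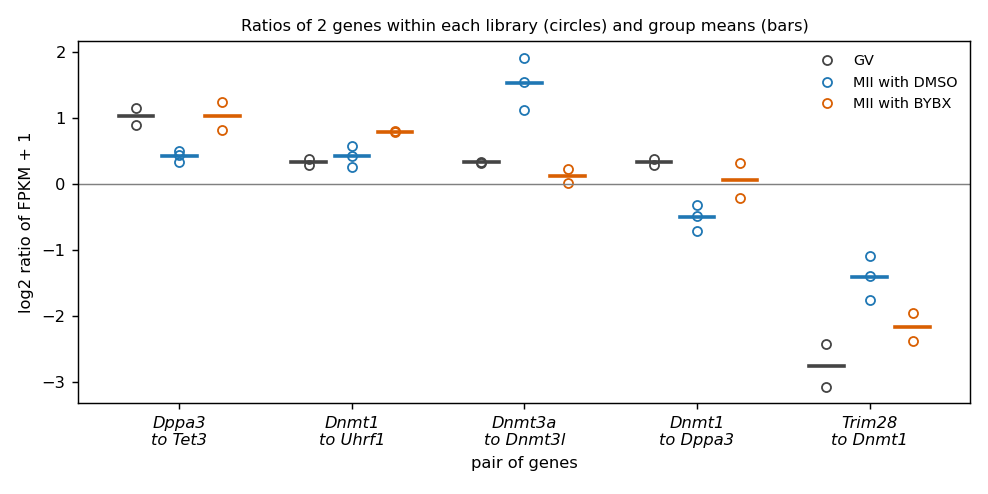
Log2 ratio of FPKM + 1 for 5 pairs of genes in each library (circles), with group means (bars), for GV (grey), MII with DMSO (blue) and MII with BYBX (orange). The DMSO libraries stand apart from both other groups in the ratios of *Dppa3* to *Tet3*, *Dnmt3a* to *Dnmt3l*, *Dnmt1* to *Dppa3* and *Trim28* to *Dnmt1*, and in *Dnmt1* to *Uhrf1* it is the BYBX libraries that do.

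Set against the predicted rG4s, the 4 tested genes with a match differed between the MII groups by 1.33 (*Dnmt1*), 1.03 (*Dnmt3a*), 0.57 (*Trim28*) and 0.16 (*Tet3*), and the 4 without by 2.43 (*Dnmt3l*), 0.95 (*Uhrf1*), 0.76 (*Dppa3*) and 0.21 (*Dnmt3b*). Both sets ranged from uncalled to called differences, and with 4 genes on each side no test was made. The search for letters does not show which transcripts hold an rG4 in the oocyte. The study mapped rG4s in oocytes, and that map was not used here. Whether rG4s relate to these differences was not tested.

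Other genes of the same pathways were read from 7 lists of 66 names, of which 63 were listed and 51 tested. From GV to MII with DMSO 44 of the 51 were called lower by limma and 0 higher, and between the MII groups 31 were called higher with BYBX and 0 lower (0 also at an unadjusted p under 0.05 in both cases). Their median changes were -1.38 and 0.74, against -1.83 and 0.84 over all entries, which are themselves 88.3% lower and 65.2% higher. Under median centring these counts turned to 8 lower and 31 higher in maturation and to 26 lower and 5 higher with BYBX. Of the 9202 entries 2456 were then lower and 4494 higher in maturation, and 4040 lower and 1696 higher with BYBX. Under the same total FPKM the counts of the 51 were 16 and 14, and 4 and 13. Those of all entries were 4557 and 2141, and 756 and 3672.

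Of the 11 tested imprint protection partners 11 were called lower in maturation and 8 higher with BYBX, against 88.3% and 65.2% of all entries. The counts of the lists below are to be read beside these shares too. *Zfp57*, the zinc finger protein that brings TRIM28 to imprints, had 1433 and 1071 FPKM in GV, 95.1, 86.1 and 99.2 FPKM in MII with DMSO and 715 and 402 FPKM in MII with BYBX. The groups did not overlap, and the difference was -3.72 ± 0.28 (adjusted p = 2.15e-08) in maturation and 2.51 ± 0.28 (adjusted p = 4.16e-06) with BYBX. *Setdb1*, the histone methyltransferase that TRIM28 recruits, had 68.6 and 54.3 FPKM in GV, 5.23, 4.01 and 5.27 FPKM with DMSO and 24.1 and 19.3 FPKM with BYBX, a difference of -3.42 ± 0.25 and then of 1.96 ± 0.25 (adjusted p = 1.76e-08 and 1.49e-05). Both genes differed in the same directions under the same total and median centring, with *Zfp57* at -1.41 and 1.23 and *Setdb1* at -1.11 and 0.68 under the latter. *Trim28*, the partner of both, was called in neither comparison on the deposited scale, and in maturation it was called higher under the same total (1.18, adjusted p = 0.0128) and median centring (1.66, adjusted p = 0.0031).

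The oxidation and excision repair list held genes that act after TET enzymes. Of its 11 tested genes 10 were lower in maturation and 6 higher with BYBX, against 88.3% and 65.2% of all entries. *Apex1*, the endonuclease that cuts at the site a glycosylase leaves, went from 19.6 and 17.5 FPKM in GV to 0.824, 0.861 and 0.819 FPKM with DMSO and stood at 4.64 and 5.54 FPKM with BYBX (-3.41 ± 0.21 and 1.73 ± 0.21). *Xrcc1*, the scaffold of that repair, had 96.0 and 58.9 FPKM in GV, 6.69, 7.0 and 5.83 FPKM with DMSO and 26.4 and 21.6 FPKM with BYBX (-3.35 ± 0.27 and 1.73 ± 0.27). Neither gene had overlapping groups, and under median centring the differences with BYBX were 0.45 (adjusted p = 0.0514) and 0.46 (adjusted p = 0.0695). *Apex1*, at a mean of 0.83 FPKM with DMSO, passed the filter only because of its levels in the other groups. *Tet1*, the remaining dioxygenase, reached at most 0.311 FPKM.

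On the list drawn up as methyl readers 3 of 4 tested genes were lower in maturation and 2 higher with BYBX. Of all entries 88.3% were lower and 65.2% higher. Whether each protein on that list binds methylated DNA was not examined here. *Mbd3*, a subunit of a nucleosome remodelling complex, had 18.7 and 24.4 FPKM in GV, 0.417, 1.52 and 1.39 FPKM with DMSO and 13.1 and 7.19 FPKM with BYBX (-3.45 ± 0.31 and 2.40 ± 0.31). *Zbtb33*, which binds methylated DNA, differed by -1.33 ± 0.27 in maturation and was not called with BYBX (0.37 ± 0.27, adjusted p = 0.245). Under median centring *Zbtb33* was called higher in maturation (0.98, adjusted p = 0.0155) and lower with BYBX (-0.91, adjusted p = 0.0271), and under the same total the values were 0.058 and -0.26, neither called. Maintenance partners had 4 of 6 lower and 3 higher. *Ctcf* differed by -2.26 ± 0.26 and 0.87 ± 0.26, *Lig1*, a DNA ligase of replication, by -1.92 ± 0.25 in maturation, and *Cdca7*, a partner of the remodeller HELLS, by 1.13 ± 0.29 with BYBX. None of these 4 values was called under median centring, where *Ctcf* was at 0.04 and -0.40, *Lig1* at 0.39 and *Cdca7* at -0.14, and under the same total only that of *Ctcf* in maturation was (-0.53, adjusted p = 0.0463).

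Genes that set imprints during oocyte growth were lower in 4 of 5 and higher with BYBX in 2. Of all entries 88.3% were lower and 65.2% higher. *Kdm1b*, the histone demethylase needed for maternal imprints, had 69.5 and 27.8 FPKM in GV, 14.9, 7.58 and 6.97 FPKM with DMSO and 14.6 and 27.3 FPKM with BYBX, where the MII groups overlapped (-2.13 ± 0.41 and 1.03 ± 0.41). *Nsd1*, a histone H3 methyltransferase, differed by -2.07 ± 0.24 in maturation. Under median centring *Kdm1b* was at 0.17 and -0.24 and *Nsd1* at 0.23 in maturation, with no call. The methyl donor list, which supplies S-adenosylmethionine, had 7 of 8 lower and 6 higher. *Mat1a*, a synthetase of that donor, had 35.4 and 21.5 FPKM in GV, 0.555, 0.746 and 0.510 FPKM with DMSO and 5.73 and 8.50 FPKM with BYBX (-4.16 ± 0.26 and 2.32 ± 0.26). *Mat2a*, another synthetase of it, had means of 32.9 FPKM in GV, 9.97 FPKM with DMSO and 18.9 FPKM with BYBX. Each was above the mean of *Mat1a* in the same group. *Mat2a* differed by 0.87 ± 0.27 with BYBX, and *Ahcy*, which clears the spent donor, by -2.19 ± 0.23 in maturation. Under median centring these 2 values turned to -0.41 and 0.12, neither called, while those of *Mat1a* held their sign and call. With DMSO *Mat1a* and *Ahcy* had means of 0.60 and 0.58 FPKM, so both passed the filter only because of their levels in the other groups.

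A ubiquitin ligase, CRL4, acts on TET enzymes through its receptor DCAF1. The list of its genes had 5 of 6 lower and 4 higher, against 88.3% and 65.2% of all entries. Its largest changes were those of *Dcaf13*, another receptor of such ligases, which had 46.1 and 32.8 FPKM in GV, 0.805, 1.13 and 0.860 FPKM with DMSO and 7.83 and 9.17 FPKM with BYBX (-4.37 ± 0.24 and 2.30 ± 0.24). *Rbx1*, the ring subunit, differed by -2.74 ± 0.22 in maturation and *Cul4a*, a scaffold, by 0.71 ± 0.23 with BYBX. The value of *Cul4a* was -0.0052 (adjusted p = 0.988) under the same total and -0.57 (adjusted p = 0.026), called lower, under median centring, and that of *Rbx1* was -0.44 (adjusted p = 0.0395) under the latter. Over the 51 genes the 5 called higher with BYBX under median centring were *Mbd3*, *Setdb1*, *Zfp57*, *Mat1a* and *Dcaf13*. All 5 were also called higher on the deposited scale and under the same total. With DMSO *Mat1a* and *Dcaf13* had means of 0.60 and 0.93 FPKM, so both passed the filter only because of their GV and BYBX levels. Such a filter favours genes that are low with DMSO and higher elsewhere.

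**Figure D5:**
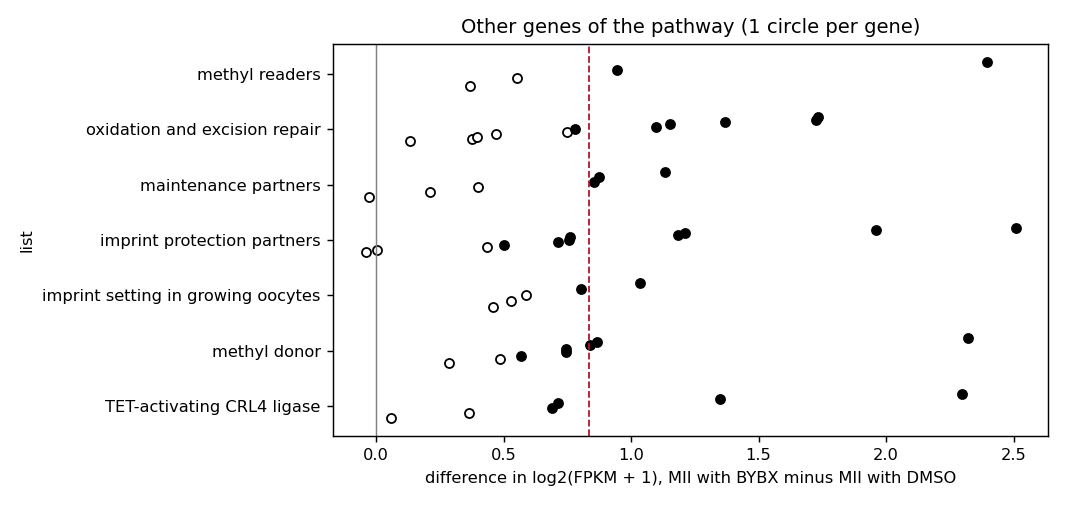
Fitted difference in log2(FPKM + 1) between MII with BYBX and MII with DMSO for 51 genes of 7 lists (1 circle per gene, filled where the adjusted p was under 0.05). The grey line is 0 and the dashed red line the median of all 9202 entries, 0.84. *Zfp57* lies farthest to the right among imprint protection partners at 2.51.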

How the data were processed

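The members, the lists and the tests were chosen with earlier results of these data known. The authors trimmed reads with Trim Galore 0.6.7, aligned them to mm10 with HISAT2 2.2.1, kept uniquely mapped reads and computed FPKM on UCSC gene models with Cufflinks 2.2.1. They deposited FPKM values scaled to an ERCC spike-in (100 pg per library), with GV libraries as the common reference of different batches. Neither the factors nor the batches are given, and no spike-in entries are in the tables, so the depth is unknown and no counting interval is given. Of 25912 entries, 4 lacked a number in 1 library and were left out.

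Values were analysed as log2(FPKM + 1) by limma 3.58.1 (R 4.3.3), with an intensity trend in eBayes, on entries of at least 1 FPKM in the mean of the group means, with the 7 libraries in 1 model of 4 residual degrees of freedom, a method tested on simulated data. Named genes are the 10 members and, of each list, the 2 largest rises with BYBX and the 2 largest falls in maturation among those that passed the test (adjusted p under 0.05), reached a mean of 5 FPKM in either group and did not overlap. Copies of at least 300 bases and 90% identity were sought with BLAST 2.17.0. Ratios, shares and plots used Python 3.11.15. Tried besides were a filter at 5 FPKM or no filter, a pseudocount of 0.1, the same total FPKM, median centring, only the groups compared, no trend, the replicate number as a block, and leaving out each library.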

Additional observations from a re-analysis of the deposited data

How the results depend on the processing

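The scaling set most directions, and its own error cannot be read from the deposited values. The cause of the changes below was not tested. *Dnmt3l* kept its direction and call in maturation and with BYBX under every alternative run. The other 7 tested genes changed sign or call under at least 1 alternative in at least 1 of these 2 comparisons. Between MII with BYBX and GV *Dnmt3l* too lost its limma call, under the same total (-0.15, adjusted p = 0.733) and median centring (-0.053, adjusted p = 0.894). Depth is unknown, and groups of 2 and 3 libraries limit all comparisons.

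In maturation (MII with DMSO minus GV), the same total FPKM gave 2 of the 8 genes lower and 4 higher, a median change of the 8 of 0.32, and 4557 of all entries lower with 2141 higher. Median centring gave 1 lower and 4 higher, a median of 0.75, and 2456 entries lower with 4494 higher. The median over all entries was -0.56 under the same total and 0.47 under median centring, so neither sets the typical entry to 0. Signs turned to 0.33 for *Dnmt1* and 0.24 for *Uhrf1* under median centring, both below the median of all entries there. Under the same total and median centring they turned to 0.78 and 1.76 for *Dnmt3b*, 1.33 and 1.77 for *Tet3*, 0.74 and 1.17 for *Dppa3* and 1.18 and 1.66 for *Trim28*. A filter at 5 FPKM, which tests fewer entries, left 4842 lower and 10 higher. Without a filter, which brings in *Tet2* and *Tdg*, the median of the members was -0.89.

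With BYBX (minus MII with DMSO), the same total gave 1 gene lower and 1 higher, a median of -0.024 and 756 entries lower with 3672 higher, and median centring 3 lower and 1 higher, a median of -0.42 and 4040 lower with 1696 higher. The filter at 5 FPKM left 3686 higher. The median over all entries was 0.34 under the same total and -0.44 under median centring. Signs turned under median centring to -0.32 for *Uhrf1* and -0.25 for *Dnmt3a*, both above that median. Under the same total and median centring they turned to -0.44 and -1.07 for *Dnmt3b*, -0.72 and -1.12 for *Tet3*, -0.12 and -0.51 for *Dppa3* and -0.29 and -0.71 for *Trim28*.

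Between MII with BYBX and GV, the same total gave 0 genes lower, a median of 0.34 and 1222 entries lower with 488 higher, and median centring 0 lower and 2 higher, a median of 0.52 and 1250 lower with 1397 higher. The filter at 5 FPKM gave 3779 lower and 15 higher, and no filter 8336 lower and 58 higher. Under the same total and median centring the signs turned to 0.34 and 0.38 for *Dnmt1*, 0.35 and 0.69 for *Dnmt3b*, 0.61 and 0.66 for *Tet3*, 0.62 and 0.66 for *Dppa3* and 0.89 and 0.96 for *Trim28*. Over all entries the medians there were -0.17 and 0.037. The ratio of *Dppa3* to *Tet3*, about equal in these groups, was 0.0023 with a pseudocount of 0.1.

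Leaving out each library in turn gave 5 to 6 genes lower in maturation with a median of -1.72 to -1.37, 2 to 6 higher with BYBX with a median of 0.63 to 1.19, and 1 to 4 lower between MII with BYBX and GV with a median of -0.85 to -0.27. All entries called ranged over 7248 to 8186 lower and 9 to 52 higher in maturation, 3 to 15 lower and 5095 to 6095 higher with BYBX, and 4747 to 6404 lower and 13 to 93 higher between MII with BYBX and GV. The difference with BYBX was -0.15 to 0.47 for *Tet3* and -0.0045 to 1.15 for *Trim28*, the difference of *Trim28* between MII with BYBX and GV was -0.65 to 0.51, and that of the ratio of *Dppa3* to *Tet3* -0.21 to 0.21. The signs that turned were those of *Tet3* and *Trim28* without the first BYBX library, and of *Trim28* and the ratio without 1 of the GV or BYBX libraries.

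Replicate numbers are shared by the groups, but no label says what a number marks. Deviations of same-numbered libraries from their group means correlated at 0.49 and 0.28 in maturation, -0.60 and -0.35 between the MII groups and -0.33 between MII with BYBX and GV, with 2 pairs each, too few to show whether libraries share more than a number. With the number as a replicate block, 5 of the 8 genes were lower in maturation, 5 higher with BYBX and 3 lower between MII with BYBX and GV. Of the 9202 entries 7777 were lower and 14 higher in maturation, and 5266 were higher and 3 lower with BYBX. Between MII with BYBX and GV 5962 were lower and 27 higher. A crossed replicate block between MII with BYBX and GV, chosen after seeing the data, gave 4 genes lower, with 6688 of all entries lower and 57 higher.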
